A study of Mus musculus with 231 samples.

Results

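Mature miRNAs in peripheral blood mononuclear cells (PBMC) were compared between mice with an induced Cbfb-MYH11 (CM) fusion gene and control mice (Ctrl) at month 4 after induction. The 13 libraries of the training cohort labelled T4 were taken from the deposited raw count table, 6 of them labelled CM and 7 labelled CTL, out of 231 libraries in the series. Each library came from a different mouse. Of 1863 miRNAs in the table, 478 passed a filter on low counts and were tested. All mice were C57BL/6 and received intraperitoneal poly(I:C), 14 mg/kg every other day for 7 doses, from an age of 6 to 8 weeks, so that both arms had been through the same injections. CM mice carried a knock-in allele of the fusion (Cbfb56M/+) together with Mx1-Cre, which acts in cells that respond to interferon, so recombination is not limited to blood-forming cells. Their genotype label was CHW. Ctrl mice were littermates with the genotype labels HW (2 mice), CW (4 mice) and WT (1 mouse). The labels describe littermates without the transgene and the methods describe littermates with the Cbfb allele, so it is not settled which of them carried an allele that was never recombined. The CM arm held 3 females and 3 males, and the Ctrl arm 2 females and 5 males.

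The fusion joins the gene of CBFβ, the partner subunit of the RUNX transcription factors, to a smooth muscle myosin gene, and in humans it arises from an inversion of chromosome 16 in acute myeloid leukemia (AML). It blocks differentiation of stem and progenitor cells, and AML follows after a latent period. Mature miRNAs are short RNAs that guide the silencing complex to mRNAs, mainly through the seed, the bases near their 5′ end. In blood, miR-142 marks hematopoietic cells in general, miR-150 mature lymphocytes, miR-223 granulocytes and monocytes, and the clustered miR-144 and miR-451a red cells. miR-126 is made from the Egfl7 gene, is abundant in endothelium and in hematopoietic stem cells, and restrains the cell cycle entry of stem cells. The fusion transcript itself cannot be seen in small RNA data, so the arm rests on the labels.

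Month 4 libraries held between 3915492 and 7958411 counts, with 924 to 1055 miRNAs above 0. Levels are given as counts per 1000000 (CPM) after trimmed mean of M-values (TMM) scaling, and 3 counts corresponded to 0.369 to 0.831 CPM. The blood cell markers were present in every library, with miR-142a-5p at 30689 to 65924 CPM, miR-150-5p at 6369 to 72734 CPM and miR-223-3p at 2721 to 11635 CPM. CM mice 3338 and 3357 had the highest scores on the first principal component (31.1 and 14.4, compared with −10.8 to 0.826 in the other 11 mice), which held 35.5% of the variance. Both had their last library at month 4, whereas CM mice 3334, 3341, 3368 and 3370 had libraries at later months. The study sampled mice until they were moribund with leukemia, and the labels do not give the state of a mouse. In the sample titles the running numbers of CM mouse 3334 and Ctrl mouse 3335 cross over at later months, so results that rest on these mice are also given without them. A number after the letter G, which no source explains, was not shared by the arms at month 4, and within that month the arm and the G number cannot be told apart. In RNA from mixed cells, fewer cells of a type and less RNA per cell cannot be told apart either.

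The sequences of the miRNAs on which the results turn are shown first, with the seed (bases 2 to 8) in capitals, as given by RefSeq for mouse build GRCm38.p6. In all, 396 of the 478 tested miRNAs matched a RefSeq entry by name, and miR-126a-5p was not among them. The first lines hold the miRNAs called between the arms, the other arm product of miR-135a, and miR-126b-5p, which is read from the opposite strand of miR-126a and shares 19 bases with it. The later lines hold miRNAs that set mice 3338 and 3357 apart, in which miR-132-3p and miR-212-3p share 1 seed, as do miR-17-5p and miR-20a-5p.
miR-126a-3p: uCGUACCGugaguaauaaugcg
miR-126b-5p: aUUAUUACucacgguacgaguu
miR-499-5p: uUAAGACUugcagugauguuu
miR-135a-1-3p: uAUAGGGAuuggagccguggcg
miR-135a-5p: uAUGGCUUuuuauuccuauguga
miR-31-5p: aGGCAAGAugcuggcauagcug
miR-541-5p: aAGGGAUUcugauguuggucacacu
miR-298-5p: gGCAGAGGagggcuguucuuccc
miR-296-3p: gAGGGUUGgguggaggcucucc
miR-132-3p: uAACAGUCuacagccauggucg
miR-212-3p: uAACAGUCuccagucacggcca
miR-17-5p: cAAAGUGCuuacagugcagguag
miR-20a-5p: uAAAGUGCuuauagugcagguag
miR-34a-5p: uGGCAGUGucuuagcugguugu
miR-451a: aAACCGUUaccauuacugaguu

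miR-126a-3p lies at chr2:26591402-26591423 on the plus strand, within Egfl7. The study places miR-126 in an intron of this gene. In the GENCODE annotation of the older build NCBIM37 the miR-126a precursor overlaps an exon of at least 1 Egfl7 transcript. miR-499-5p lies at chr2:155622893-155622913 on the plus strand, in an intron of Myh7b, a myosin heavy chain gene. miR-135a-1-3p lies at chr9:106154179-106154200 on the plus strand, in an intron of the noncoding gene D030055H07Rik and antisense to an exon of Glyctk. miR-135a-5p is made from 2 loci, at chr9:106154140-106154162 and chr10:92072141-92072163, whose mature sequences are identical, so its counts cannot be divided between them.

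To find which miRNAs differed between CM and Ctrl mice at month 4, all 478 were tested with edgeR's quasi-likelihood test. Calls are two-sided, at a Benjamini-Hochberg adjusted p under 0.05, and fold changes are log2 values with positive signs for higher levels in CM mice. At this threshold 4 miRNAs (0.837%) were called. The 3 higher ones (0.628%) were both strands of miR-126a and miR-499-5p. The 1 lower (0.209%) was miR-135a-1-3p, which passed the filter through the Ctrl arm alone. At an unadjusted p under 0.05 there were 81 (16.9%), and at an unadjusted p of at most 0.01 with a fold of at least 1.5, values the study used for its mRNA sequencing together with a minimum level, there were 33 (6.9%), 27 higher and 6 lower. In 3 of the 478 (0.628%), the same 3 that were called higher, every CM library lay above every Ctrl library, and in none did every CM library lie below. The p-values measure the spread between these mice, each of which was sampled once at this month.

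In CM mice 3334, 3338, 3341, 3357, 3368 and 3370, miR-126a-3p was at 279, 2017, 302, 1398, 264 and 213 CPM. In the 7 Ctrl mice it ranged from 93.6 to 174 CPM with a median of 130.7 CPM. The lowest CM mouse was above the highest Ctrl mouse, and 3338 and 3357 were far above the other 4 CM mice, which lay close together. The means were 746 ± 771 CPM (SD, n = 6) and 134.8 ± 32.5 CPM (n = 7), a log2 fold change of 2.47 ± 0.53 (SE; edgeR adjusted p = 0.0371).

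The partner strand miR-126a-5p followed the same order of mice at the top. It was at 180, 1182, 157, 813, 162 and 108.97 CPM in the CM mice as ordered above, and at 33.4 to 89.5 CPM with a median of 48.7 CPM in the Ctrl mice. The arms again did not overlap, although CM mouse 3370 and Ctrl mouse 3350 were near each other. The log2 fold change was 2.87 ± 0.56 (SE; edgeR adjusted p = 0.0315). The strand opposite, miR-126b, did not pass the filter, with 0 to 11 counts per library for miR-126b-3p and 0 to 12 for miR-126b-5p.

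miR-499-5p is known from heart and slow muscle, where it is made together with its myosin host gene. Its levels were 24.4, 54.3, 13.0, 35.6, 22.2 and 13.5 CPM in the CM mice and 3.55 to 10.8 CPM with a median of 6.09 CPM in the Ctrl mice. Again every CM mouse was above every Ctrl mouse, with 3338 and 3357 highest, but with less distance to the other CM mice than for miR-126a. The log2 fold change was 2.10 ± 0.40 (SE; edgeR adjusted p = 0.0315). Both other muscle miRNAs tested had overlapping arms. miR-133a-3p was at 26.7, 0.277, 11.7, 4.00, 1.77 and 16.5 CPM in the CM mice and at 0.163 to 8.10 CPM in Ctrl mice, a log2 fold change of 2.01 ± 0.89 (SE) that was not called (edgeR adjusted p = 0.257). miR-1a-3p was at 0.831 to 660 CPM in CM mice and 0.395 to 213 CPM in Ctrl mice (0.32 ± 1.19, edgeR adjusted p = 0.920). Mouse 3338, with the highest miR-499-5p, had the lowest CM level of both.

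miR-135a-1-3p was the only miRNA called lower, and it rested on few reads. It had 2, 1, 4, 4, 5 and 4 counts in the CM libraries and 3 to 49 counts, with a median of 18, in the Ctrl libraries. With at most 5 counts in any CM library, it passed the filter through the Ctrl arm alone, where it was high. Its difference was therefore in part set by the filter, and the call is not read as support for a lower level. Ctrl mouse 3350, the single WT mouse, was inside the CM range at 0.589 CPM, and the other 6 Ctrl mice lay above all CM mice at 2.14 to 9.05 CPM. The log2 fold change was −2.52 ± 0.53 (SE; edgeR adjusted p = 0.0371). The other strand, miR-135a-5p, had more reads and the same outlying mouse. It was at 0.996, 0.277, 2.46, 1.41, 13.8 and 2.46 CPM in the CM mice, at 24.9 to 215 CPM in 6 Ctrl mice and at 0.981 CPM in Ctrl mouse 3350. Its log2 fold change of −4.19 ± 1.00 (SE) missed the threshold (edgeR adjusted p = 0.0562). It was called in 8 of 31 alternatives, among them DESeq2 (DESeq2 adjusted p = 6.06e-05).

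**Figure D1:**
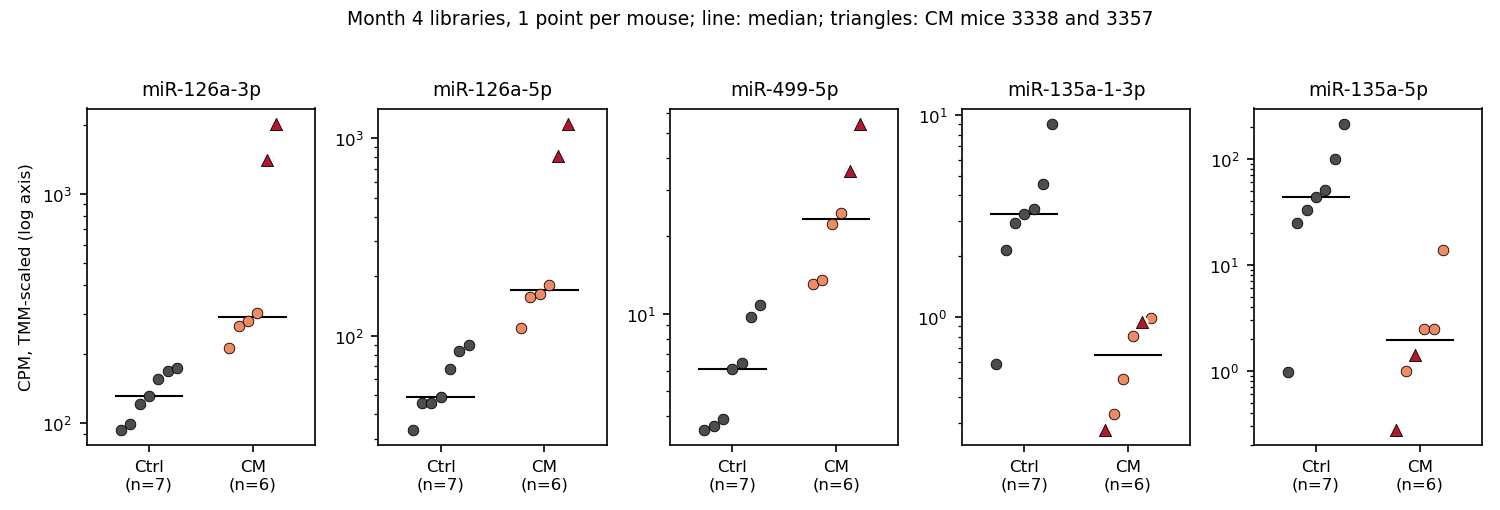
Levels of 5 miRNAs at month 4 in CPM on log axes, 1 point per mouse with the median as a line, for 7 Ctrl and 6 CM mice. Triangles are CM mice 3338 and 3357. The arms do not overlap for miR-126a-3p, miR-126a-5p and miR-499-5p, and 1 Ctrl mouse lies within the CM range for both strands of miR-135a.

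These 4 calls depended on single mice. No miRNA was called by edgeR without CM mouse 3338 (56 at an unadjusted p under 0.05), without CM mouse 3357 (63), or without Ctrl mouse 3335, 3339, 3340, 3342 or 3349 (54 to 73), whereas 14 were called without CM mouse 3334, 9 without 3341, 8 without 3368 and 10 without 3370. Without mice 3334 and 3335 there were 7 calls, which included both strands of miR-126a and miR-499-5p, while miR-135a-1-3p missed the threshold at −2.40 (edgeR adjusted p = 0.0625). With sex as a covariate edgeR made 0 calls (49 at an unadjusted p under 0.05), with log2 fold changes of 1.75 for miR-126a-3p, 2.17 for miR-126a-5p, 1.93 for miR-499-5p and −2.17 for miR-135a-1-3p (edgeR adjusted p = 0.119, 0.105, 0.0732 and 0.105). Without mice 3338 and 3357 edgeR made 0 calls (43 at an unadjusted p under 0.05), and the log2 fold changes were 0.94, 1.32 and 1.48 for miR-126a-3p, miR-126a-5p and miR-499-5p (edgeR adjusted p = 0.100 for each). DESeq2 made 23 calls and limma-voom 0 (62 at an unadjusted p under 0.05).

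Several miRNAs lay just beyond the threshold in addition to miR-135a-5p. miR-34c-5p, a transcriptional target of p53, was at 3.32, 6.37, 3.32, 3.30, 3.54 and 4.18 CPM in the CM mice and at 4.99 to 14.8 CPM in Ctrl mice, and only CM mouse 3338 fell within the Ctrl range (log2 fold change −1.34 ± 0.31 SE, edgeR adjusted p = 0.0562). miR-2137 was raised in most CM mice, at 161, 147, 83.3, 120, 120 and 74.04 CPM against 42.7 to 78.5 CPM in Ctrl mice, and only CM mouse 3370 fell within the Ctrl range (log2 fold change 1.03 ± 0.25 SE, edgeR adjusted p = 0.0562). For miR-541-5p, miR-31-5p, miR-212-5p and miR-298-5p the fold changes were larger, at 4.40, 3.24, 3.61 and 3.71 (edgeR adjusted p = 0.0562, 0.0625, 0.0671 and 0.0671). Without mice 3338 and 3357 they were 0.72, 0.86, 0.47 and 0.29. With all mice, DESeq2 called miR-2137, miR-31-5p, miR-212-5p and miR-298-5p (DESeq2 adjusted p = 0.00248, 0.000772, 0.000744 and 0.00073). It gave no adjusted p for miR-541-5p. Of 31 alternatives, 10 each called miR-31-5p and miR-298-5p, 8 each miR-541-5p and miR-212-5p, and 3 miR-2137. Among miRNAs at a mean of 10 CPM or more, those with the smallest p in the lower direction after miR-135a-5p were miR-200c-3p, an epithelial miRNA, at −0.99, miR-338-5p at −0.97, miR-147-3p at −1.79, miR-139-5p at −1.04, miR-1249-3p at −1.27, miR-574-3p at −1.26 and miR-181a-2-3p at −0.70 (edgeR adjusted p from 0.140 to 0.229). None was called in this edgeR fit, and DESeq2 called miR-200c-3p and miR-147-3p (DESeq2 adjusted p = 0.0397 and 0.0465). Of 31 alternatives, 4 called miR-200c-3p. miR-338-5p, miR-147-3p, miR-139-5p, miR-1249-3p and miR-574-3p were each called in 3 of 31, and miR-181a-2-3p in 0 of 28.

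The most abundant miRNAs did not separate the arms. miR-21a-5p, the miRNA with the highest mean, was at 103483 to 132789 CPM in CM and 77449 to 141349 CPM in Ctrl mice, a log2 fold change of 0.05 ± 0.17 (SE). Those of let-7i-5p, let-7g-5p, miR-142a-5p, miR-26a-5p, let-7f-5p, miR-150-5p and miR-451a were 0.03, 0.41, 0.06, 0.48, 0.71, −0.74 and 0.23, none of them called. The signs of miR-21a-5p, let-7i-5p and miR-142a-5p turned with raw library sizes and with DESeq2, and the median over all miRNAs moved from 0.05 to −0.07 with raw library sizes. Some of these varied widely within an arm. miR-26a-5p ranged from 6743 to 127628 CPM among CM mice and from 5863 to 94311 CPM among Ctrl mice, and let-7f-5p from 5501 to 120221 CPM and from 7312 to 62866 CPM. Such a spread is large beside the difference between the arms, and the number of mice bounds what could be detected for them.

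**Figure D2:**
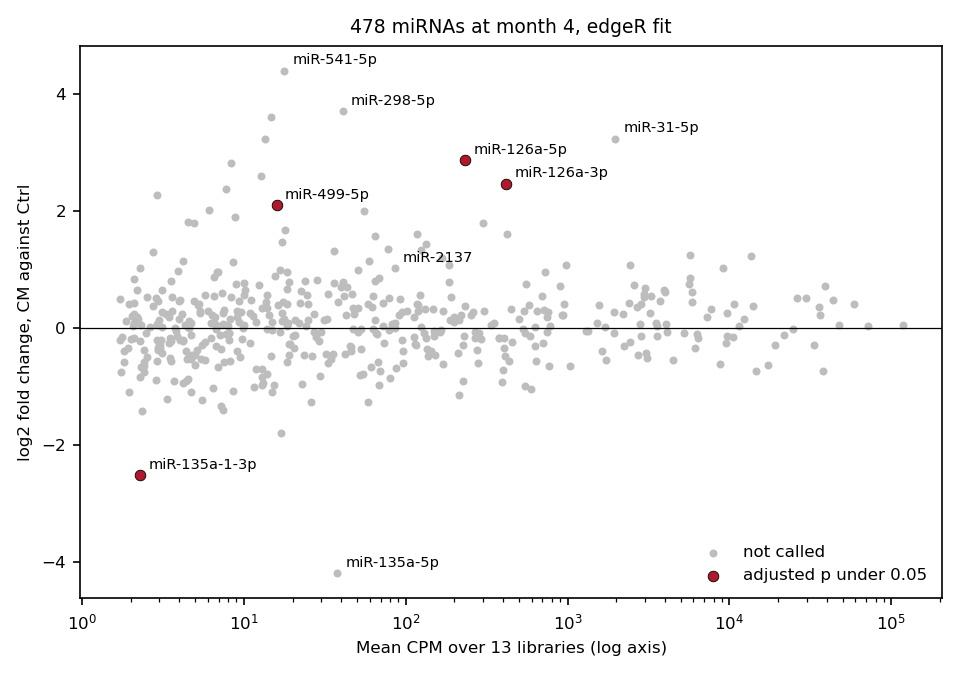
Log2 fold change of CM against Ctrl at month 4 (edgeR) for 478 miRNAs against their mean level over 13 libraries in CPM on a log axis. The 4 called miRNAs are in red, and miR-541-5p, miR-298-5p and miR-31-5p lie above 3 without being called.

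Lists of miRNAs that mark cell types or share a locus were counted in the same edgeR comparison, in which 263 tested miRNAs lay above 0 and 215 below, with a median log2 fold change of 0.05. Of 7 erythroid miRNAs (miR-144, miR-451a and miR-486), all 7 lay above 0 with a median of 0.52, 2 had an unadjusted p under 0.05 and none was called. Of 5 mature lymphocyte miRNAs (miR-150, miR-155 and miR-342), all 5 lay below 0 with a median of −0.43 and none was called. The 4 miRNAs of the miR-132 and miR-212 locus, which CREB signaling induces in neurons and immune cells, all had an unadjusted p under 0.05 with a median of 2.50. None was called by edgeR, whereas with DESeq2 both of the named members, miR-212-5p and miR-132-5p, were called (DESeq2 adjusted p = 0.000744 and 0.00432). In the fit with the divided CM arm, described below, their median against Ctrl was 3.83 in mice 3338 and 3357 and 0.49 in the other 4 CM mice. All 3 tested miRNAs of the Gnas locus, and all 3 of the miR-182, miR-183 and miR-96 cluster, also had an unadjusted p under 0.05. Their medians were 3.23 and 1.57, and none was called by edgeR. The 7 myeloid miRNAs had a median of 0.03, the 10 tested stem and progenitor miRNAs −0.38 and the 4 tested platelet miRNAs −0.26, with no call in these lists. Of 8 epithelial miRNAs, among them miR-200c-3p, 3 lay above 0 and 5 below, with a median of −0.13 and no call.

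To ask whether the difference went beyond what the same mice showed before induction, the change from month 0 to month 4 was compared between the arms. Of 529 miRNAs tested, 2 were called (0.378%), and both were strands of miR-126a. At month 0 miR-126a-3p was at 102.5 to 172 CPM in the 7 CM mice and at 90.4 to 444 CPM in the 7 Ctrl mice, among which 3340 and 3342 were at 416 and 444 CPM. By month 4 all 6 CM mice with both libraries were above their own month 0 value, and Ctrl mice 3340 and 3342 were at 101.5 and 134.5 CPM. The change was 2.63 in CM and −0.59 in Ctrl mice on the log2 scale, a difference of 3.22 ± 0.67 (SE; edgeR adjusted p = 0.0142). For miR-126a-5p, which was at 83.4 and 88.2 CPM in those Ctrl mice at month 0, within the CM range of 43.4 to 94.4 CPM, the changes were 2.71 and −0.16, a difference of 2.87 ± 0.60 (SE; edgeR adjusted p = 0.0142). miR-499-5p changed by 1.91 in CM and 0.04 in Ctrl mice and missed the threshold (difference 1.87 ± 0.46 SE, edgeR adjusted p = 0.0717). Without mice 3334 and 3335 both strands were called, at 3.38 and 2.89 (edgeR adjusted p = 0.0459 for both). With each mouse as a replicate block edgeR made 0 calls (29 at an unadjusted p under 0.05), and the differences were 2.20 and 2.19 for miR-126a-3p and miR-126a-5p (edgeR adjusted p = 0.726 for both).

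Since 2 of the 6 CM mice had no library after month 4, the CM arm was divided by the last month in the labels. No miRNA level entered the division, but earlier results of these data were known when it was chosen. Mice 3338 and 3357 formed one group, the 4 CM mice with later libraries another, and the 7 Ctrl mice the third, with 585 miRNAs tested in 1 edgeR fit. Both mice of the first group were female and carried G number 1, which no other month 4 library had, so sex and the G number go with this division, although CM mouse 3341 of the second group was also female. Between the CM groups 19% of the miRNAs were called, 71 higher (12.1%) and 40 lower (6.84%) in mice 3338 and 3357, and 199 (34%) had an unadjusted p under 0.05. Against Ctrl these mice had 151 calls (25.8%), 97 higher (16.6%) and 54 lower (9.23%), and 213 (36.4%) had an unadjusted p under 0.05. Both mice lay above all 11 others in 96 miRNAs (16.4%) and below them in 65 (11.1%). The filter of this fit needed fewer libraries than that of the comparison between the arms, in which 478 miRNAs were tested. miRNAs high in only 1 of the groups could therefore enter it, with a difference set by the filter. Such miRNAs are part of these counts and were not counted apart. The 4 CM mice with later libraries had 0 calls against Ctrl by edgeR, with 46 (7.86%) at an unadjusted p under 0.05, and 7 by DESeq2. Those 7 included the 4 miRNAs called between the arms.

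The split of calls by direction depended on the scaling. Mice 3338 and 3357 had TMM factors of 0.882 and 0.752, and with raw library sizes the median log2 fold change of all miRNAs between the CM groups moved from −0.02 to −0.33. The calls then numbered 42 higher and 64 lower in place of 71 and 40, and 82 were shared. Against Ctrl the calls were 62 higher and 96 lower with raw library sizes, and the median moved from −0.05 to −0.40. Without mouse 3338 there were 11 calls between the CM groups, and 24 against Ctrl, with mouse 3357 alone in its group and assumed to vary like the others. With sex as a covariate there were 68 calls between the CM groups. The sign of miR-2137, which was not called, turned between the CM groups with raw library sizes, as did the medians of the lymphocyte list (0.33 and −0.06) and the platelet list (0.24 and −0.07).

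Both strands of miR-126a differed between the CM groups. Mice 3338 and 3357 were higher than the other CM mice by 2.66 ± 0.31 (SE) for miR-126a-3p and by 2.68 ± 0.38 for miR-126a-5p on the log2 scale (edgeR adjusted p = 0.000199 and 0.000533). The 4 mice with later libraries exceeded Ctrl by 1.00 and 1.39, which did not pass the threshold (edgeR adjusted p = 0.0865 for both), even though their values did not overlap those of Ctrl mice. For miR-499-5p the difference between the CM groups was 1.26 ± 0.47 (SE; edgeR adjusted p = 0.0703), and the mice with later libraries exceeded Ctrl by 1.56 (edgeR adjusted p = 0.0865). For miR-135a-1-3p the CM groups were close together, at −2.54 and −2.50 against Ctrl (edgeR adjusted p = 0.0511 and 0.123). Between the mice with later libraries and Ctrl, DESeq2 called miR-126a-3p, miR-126a-5p, miR-499-5p and miR-135a-1-3p. Its differences were 0.93, 1.31, 1.48 and −2.58 (DESeq2 adjusted p = 0.0154, 0.00627, 0.0101 and 0.00943).

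miR-541-5p, from the imprinted Dlk1-Dio3 region whose miRNAs are mostly silent in adult blood, was at 190 CPM in mouse 3338 and 18.6 CPM in mouse 3357, beside 2.25 to 3.49 CPM in the remaining CM mice and 0.433 to 2.95 CPM in Ctrl mice. The difference was 5.13 ± 0.69 (log2 ± SE; edgeR adjusted p = 0.000417). Of the 33 listed miRNAs of this region, only miR-541-5p, miR-379-5p and miR-127-3p passed the filter of the comparison between the arms. miR-379-5p was at 71.7 CPM in mouse 3338 and 14.4 CPM in mouse 3357, beside 1.48 to 2.33 CPM in CM mice with later libraries and 0.395 to 3.88 CPM in Ctrl mice, and it was called higher between the CM groups (4.44, edgeR adjusted p = 0.000639). miR-127-3p was at 1.23 to 2.82 CPM in the other CM mice, 2.21 CPM in mouse 3338 and 3.53 CPM in mouse 3357, and was not called. miR-411-5p, miR-409-5p and miR-494-3p entered the fit only once mice 3338 and 3357 formed a group. Their difference was therefore set by the filter, and only their levels are given in the text. With the scaling of that fit they were at 44.3, 26.7 and 18.4 CPM in mouse 3338 and at 3.72, 5.59 and 2.56 CPM in mouse 3357, and none was above 1.85 CPM in another mouse. Mouse 3338 had the larger share of this signal. The summed level of the listed miRNAs was 445 CPM in 3338, 61 CPM in 3357, 8.37 to 16.6 CPM in the other CM mice and 5.13 to 16.1 CPM in Ctrl mice. Without mouse 3338 the difference of miR-541-5p was 2.51 (edgeR adjusted p = 0.0358).

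The order of the 2 mice was the opposite for the miRNAs near Gnas, another imprinted locus. miR-298-5p was at 59.2 CPM in mouse 3338 and 398 CPM in mouse 3357, while the other CM mice had 4.98 to 9.59 CPM and Ctrl mice 2.94 to 8.01 CPM. Mouse 3357 was thus far above 3338, and 3338 far above the rest. The difference between the CM groups was 4.87 ± 0.58 (log2 ± SE; edgeR adjusted p = 0.000199). Its neighbor miR-296-3p, at 17.4 and 125.3 CPM beside 1.14 to 6.28 CPM in the other 11 mice, differed by 4.40 ± 0.71 (SE; edgeR adjusted p = 0.00109). miR-296-5p, with a difference of 1.49, did not pass (edgeR adjusted p = 0.0731), so that 2 of the 3 tested at this locus were called. Without mouse 3338, all 3 were.

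miR-31-5p, which acts on cell migration and invasion programs in solid tumors, was at 13930 CPM in mouse 3338 and 5926 CPM in mouse 3357, whereas CM mice with later libraries had 582 to 942 CPM, within the Ctrl range of 162 to 994 CPM. The difference between the CM groups was 3.68 ± 0.66 (log2 ± SE; edgeR adjusted p = 0.00195), and without mouse 3338 it was 2.81 (edgeR adjusted p = 0.0811).

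All 4 mature strands of the miR-132 and miR-212 locus were higher in mice 3338 and 3357. miR-212-5p was at 142 and 20.96 CPM in these mice, at 2.21 to 5.15 CPM in the other CM mice and at 1.08 to 3.36 CPM in Ctrl mice, a difference of 4.55 ± 0.61 (log2 ± SE; edgeR adjusted p = 0.000417). miR-132-5p differed by 3.45, miR-132-3p by 3.31 and miR-212-3p by 3.22. As 2 strands with the same seed, miR-132-3p and miR-212-3p differ in level, at 385 and 55.4 CPM in mouse 3338. Without mouse 3338, 1 of the 4 was called.

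Further groups of related miRNAs were higher in mice 3338 and 3357. Of 4 tested miRNAs of the miR-182, miR-183 and miR-96 cluster, known from sensory organs and from activated lymphocytes, 3 were called, among them miR-182-5p at 2149 and 610 CPM beside 131.9 to 439 CPM in CM mice with later libraries and 120 to 341 CPM in Ctrl mice (difference 2.16, edgeR adjusted p = 0.0113). miR-34a-5p, a transcriptional target of p53, was at 797 and 122.9 CPM, above the Ctrl range of 52.8 to 92.3 CPM, while the other CM mice lay below that range at 40.2 to 49.9 CPM (difference 3.28, edgeR adjusted p = 0.000647). Its relative miR-34c-5p, described above, was at 3.26 to 6.32 CPM in all CM mice, compared with 4.77 to 14.96 CPM in Ctrl mice, with a difference of 0.40 between the CM groups that was not called.

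Of 11 tested miRNAs of miR-17-92 and its relatives, which MYC induces, 3 were called, namely miR-17-5p (1.24), miR-20a-5p (1.13) and miR-18a-5p (0.97), and the other 8 ranged from −0.41 to 1.23. In miR-17-5p, 3338 stood at 7694 CPM and 3357 at 4124 CPM, above 2241 to 3014 CPM in the other CM mice. Of 9 tested let-7 miRNAs, which share a seed and rise as cells differentiate, let-7f-5p (2.38) and let-7g-5p (0.90) were higher and let-7e-5p (−1.94) was lower. The let-7 calls in the higher direction did not pass with raw library sizes. Without mouse 3338 no member of the miR-182 cluster, the p53 target list, the miR-17-92 list or the let-7 list was called.

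The lower direction included miRNAs that are made outside the blood cell lineages, beside the erythroid and the stem and progenitor miRNAs given below. The 3 tested miRNAs of the miR-143 and miR-145a cluster, which is made in smooth muscle and fibroblasts of the vessel wall, were all called lower. miR-143-3p was at 20.5 CPM in mouse 3338 and 71.8 CPM in mouse 3357, beside 251 to 503 CPM in CM mice with later libraries and 217 to 1145 CPM in Ctrl mice, a difference of −3.07 ± 0.68 (log2 ± SE; edgeR adjusted p = 0.00703). miR-145a-5p differed by −2.94 and miR-145a-3p by −3.39. The summed level of the cluster was 21.9 and 75.1 CPM in these mice, 269 to 528 CPM in the CM mice with later libraries and 225 to 1186 CPM in Ctrl mice, and without mouse 3338 none of the 3 was called. Others with large differences were miR-466f-3p (−3.18), miR-879-5p (−2.96), miR-3102-3p (−2.81) and miR-466h-3p (−2.71), whose roles are not well known. Reads of the miR-466 family, which has many near-identical copies, are uncertain.

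Erythroid miRNAs divided the CM mice in another way. miR-451a was at 12628 and 21039.8 CPM in mice 3338 and 3357, at 45654 to 64360 CPM in CM mice with later libraries and at 24149 to 49491 CPM in Ctrl mice, so that 3338 and 3357 were below the Ctrl range and the CM mice with later libraries at its top or above it. The difference was −1.63 ± 0.37 (log2 ± SE; edgeR adjusted p = 0.00812), and miR-144-3p differed by −1.59 (edgeR adjusted p = 0.0308). The other 5 of the 7 erythroid miRNAs were not called, at −1.19 to −0.41. The summed level of the 7 was 31805 CPM in 3338 and 67312 CPM in 3357, 86745 to 162577 CPM in the other CM mice and 50005 to 86395 CPM in Ctrl mice. The lowest of the 4 CM mice with later libraries was thus only just above the highest Ctrl mouse in this sum, at 86745 and 86395 CPM. No erythroid miRNA was called between these groups by edgeR, and DESeq2 called 1 of the 7 higher. The median log2 fold change of the 7 between these groups was 0.74, and 0.23 without mice 3334 and 3335. Without mice 3334 and 3335, 1 of the 7 was called between the CM groups, and without mouse 3338 none.

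Of 11 tested miRNAs listed for stem and progenitor cells, 4 were called and all were lower in mice 3338 and 3357, with a median of −1.61 over the list. They were miR-130a-3p (−2.43), let-7e-5p (−1.94), miR-99a-5p (−1.91) and miR-196b-5p (−1.41). miR-99a-5p was at 1092 and 1474 CPM in these mice, 3449 to 6545 CPM in CM mice with later libraries and 1906 to 7376 CPM in Ctrl mice. This was the opposite direction to miR-126a, which is also abundant in stem cells. The HOX-embedded miR-10a-5p, at 7301 and 10507 CPM, was within the Ctrl range and was not called. Without mice 3334 and 3335 2 of 10 were called, and without mouse 3338 none.

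**Figure D3:**
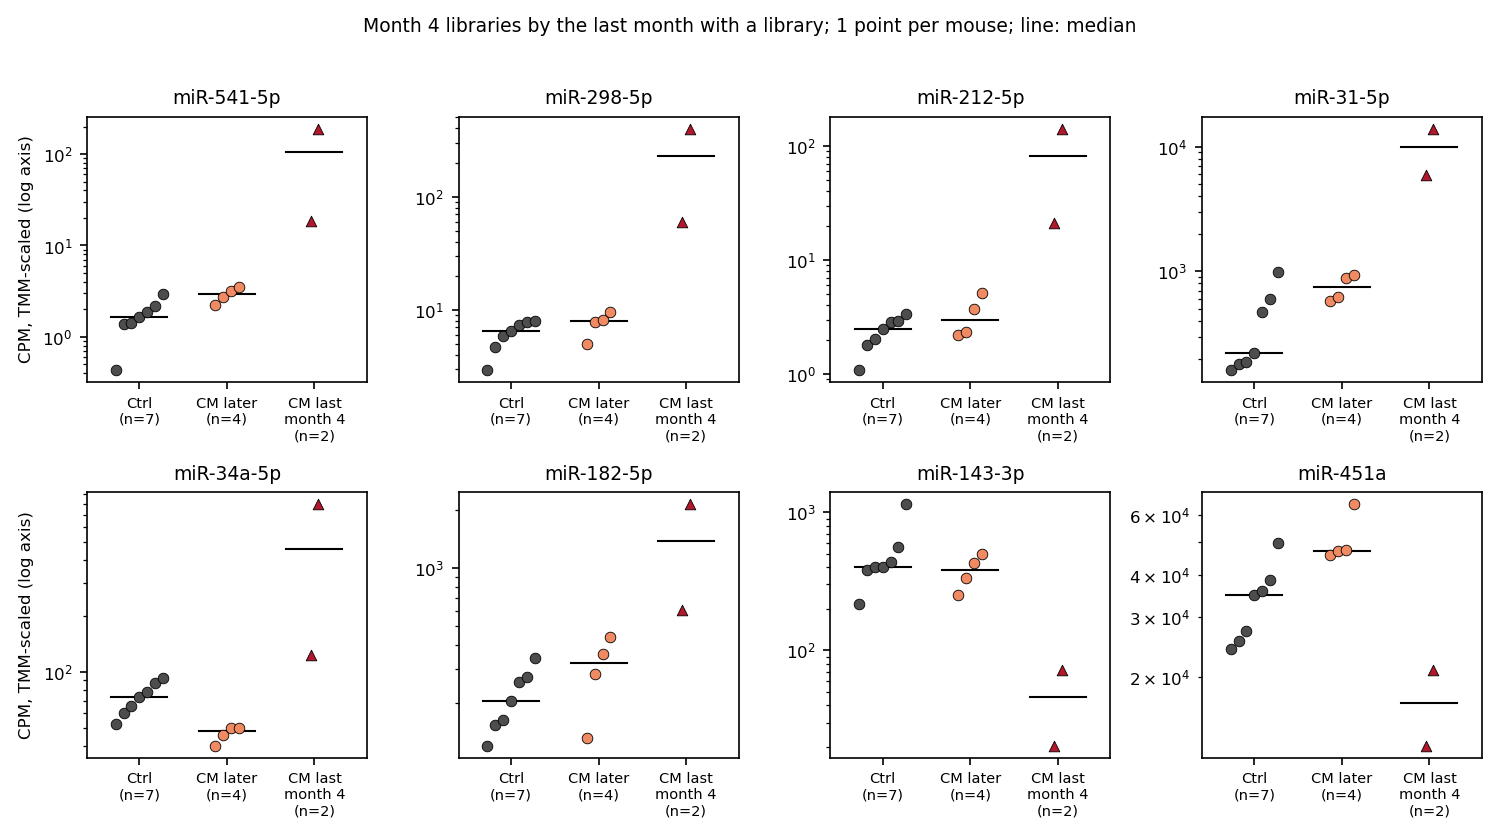
Levels of 8 miRNAs at month 4 in CPM on log axes, 1 point per mouse with the median as a line, for Ctrl mice (n = 7), CM mice with later libraries (n = 4) and CM mice 3338 and 3357 (n = 2). The last group lies above all other mice for the first 6 miRNAs and below them for miR-143-3p and miR-451a.

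**Figure D4:**
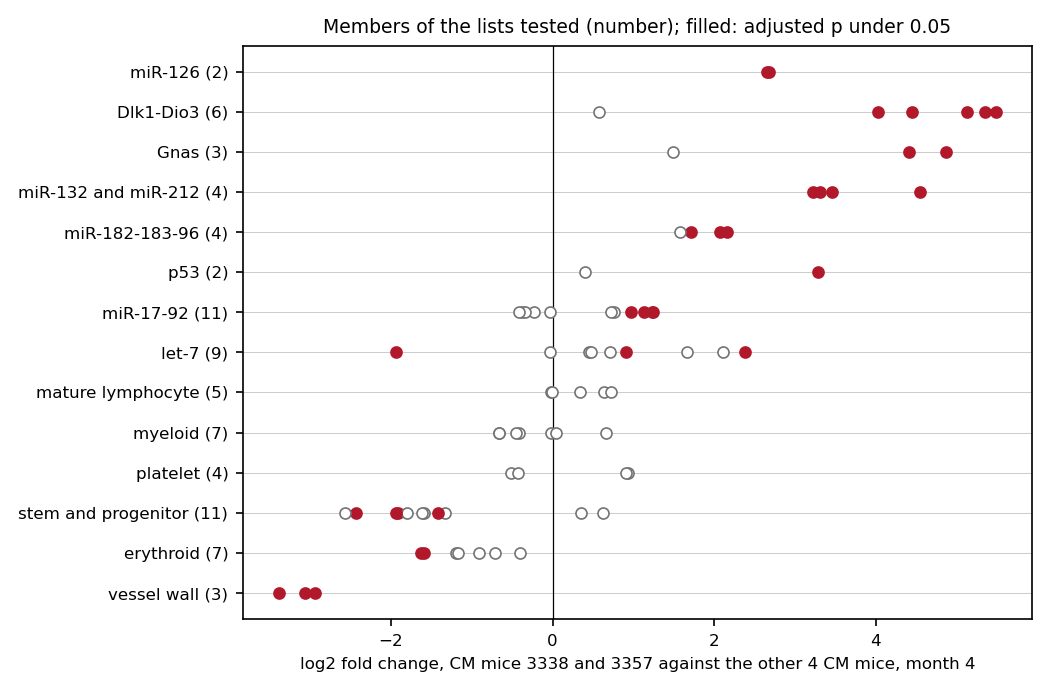
Log2 difference between CM mice 3338 and 3357 and the other 4 CM mice at month 4 for the tested members of 14 lists, with the number tested in parentheses and filled points for an edgeR adjusted p under 0.05. All called members of the Gnas, miR-132 and miR-182 lists lie above 0. Those of the stem and progenitor, erythroid and vessel wall lists lie below. Any plotted miRNA that did not pass the filter between the arms, such as miR-411-5p, miR-409-5p and miR-494-3p, entered only this fit. Its difference was set by the filter, so a filled point for it is not read as a call.

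Of 5 lymphocyte, 7 myeloid, 4 platelet and 4 inflammatory miRNAs tested, none was called between the CM groups by edgeR or DESeq2, and without mice 3334 and 3335 edgeR called 1 platelet miRNA higher. miR-150-5p was at 8904 and 46816 CPM in mice 3338 and 3357 and at 6369 to 46400 CPM in CM mice with later libraries, so that each CM group held both low and high mice. miR-146a-5p, which dampens NF-κB signaling, was likewise low in 3338 and 3334, at 11883 and 8520 CPM, and at 24954 to 52300 CPM in the 4 other CM mice. The summed platelet miRNAs, which miR-191-5p dominated, were at 59458 and 58983 CPM in mice 3338 and 3357, above 26239 to 47535 CPM in CM mice with later libraries and 27565 to 39659 CPM in Ctrl mice, and miR-191-5p differed by 0.93 without passing the threshold (edgeR adjusted p = 0.0697). miR-191-5p is abundant in many cell types besides platelets.

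Other lists held single calls or none between the CM groups. Of 7 tested miR-30 miRNAs miR-30c-5p was higher (2.94) and miR-30a-5p lower (−1.48). Of 3 liver miRNAs miR-192-5p was higher (0.92), and of 8 miRNAs of a chromosome X cluster miR-501-3p was higher (1.01). The 5 muscle miRNAs included miR-133b-3p, which did not pass the filter between the arms and is given below as levels alone. No other muscle miRNA was called. By edgeR none was called among 8 epithelial, 2 pan-hematopoietic, 5 miR-29, 6 miR-181, 6 miR-106b-25, 3 miR-135 and 2 Mest miRNAs, nor among 4 of miR-221 and miR-222 and 2 of miR-193 and miR-365. DESeq2 called 1 miR-29 and 1 miR-106b-25 miRNA higher and 1 miR-181 miRNA lower, and edgeR with raw library sizes also called 1 miR-181 miRNA lower.

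Month 3 libraries of the same mice, which the division did not use, were then inspected. At that month mouse 3338 shared its G number with CM mice 3341 and 3370, and mouse 3357 shared another with CM mice 3336 and 3368, so each could be set beside CM mice of its own G number. miR-126a-3p was at 1425 CPM in 3338 beside 296 and 223 CPM, and at 1397 CPM in 3357 beside 216 and 254 CPM. miR-31-5p was at 3900 and 3838 CPM, compared with 552 to 685 CPM in the 4 mates. Of the 71 miRNAs called higher at month 4, 58 (81.7%) were above both mates in both mice at month 3, compared with 141 (24.1%) of all 584 with a value. Of the 40 called lower, 25 (62.5%) were below both mates in both mice, compared with 18.7% of all. These are counts over miRNAs of the same mice, which are not independent replicates, and no test was made of them. Both called sets include miRNAs that entered only the fit with the divided CM arm, so their month 4 difference was set by its filter. Such miRNAs were not counted apart, and their share in the month 3 counts is not read as support.

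The course of the miRNAs from month 0 differed. With scaling over all training libraries, miR-126a-3p in mouse 3338 was at 109.5, 446, 460, 1425 and 1994 CPM at months 0 to 4, and in mouse 3357 at 100.7, 382, 359, 1397 and 1289 CPM. At month 1 the other 5 CM mice were at 224 to 400 CPM and Ctrl mice at 86.9 to 135.4 CPM, so that 3338 and 3357 were close to the other CM mice. By month 2 the 4 other CM mice with a library were at 168 to 261 CPM, below both. miR-541-5p in mouse 3338 was still at 2.93 CPM at month 2 and reached 21.9 CPM at month 3 and 187 CPM at month 4. miR-298-5p in mouse 3357 stood at 29.2, 260 and 367 CPM at months 2, 3 and 4, and in mouse 3338 it went from 9.13 to 31.5 and 58.6 CPM. Thus miR-126a-3p was above the Ctrl mice from month 1, while miR-298-5p in mouse 3338 lay within the Ctrl range at months 1 and 2. These levels were not tested.

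**Figure D5:**
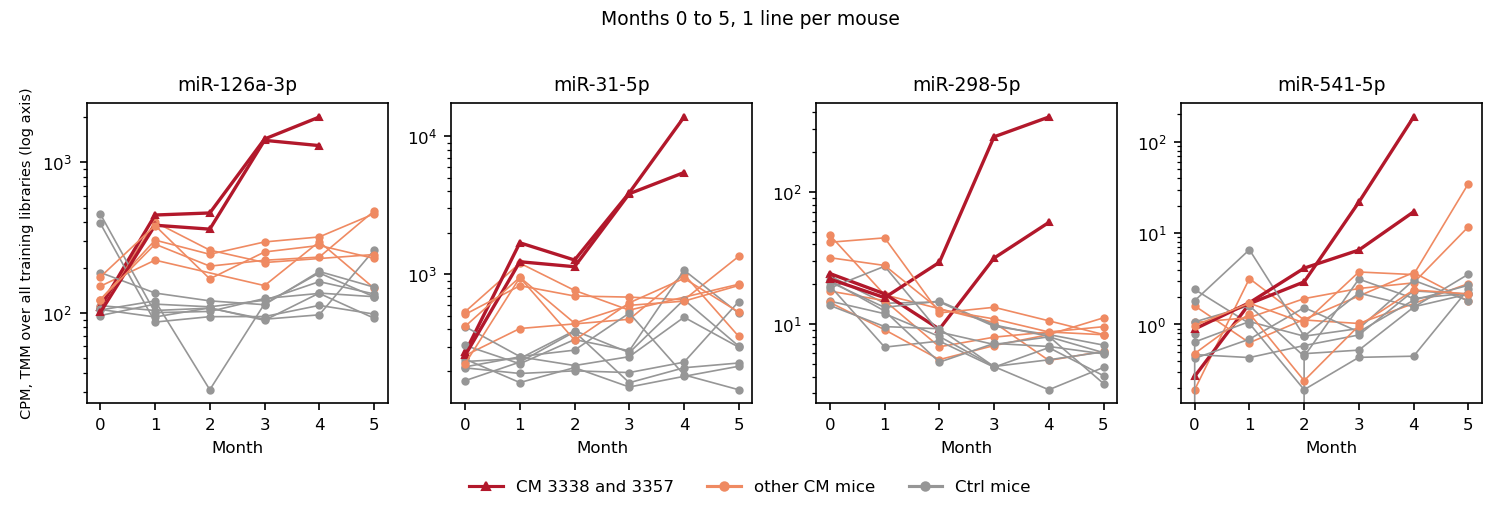
Levels of 4 miRNAs in CPM on log axes from month 0 (before induction) to month 5, with 1 line per mouse, for Ctrl mice, CM mice 3338 and 3357 and the other CM mice. By month 3 mice 3338 and 3357 lie above all other mice in the 4 panels, and miR-126a-3p is above Ctrl mice in both from month 1.

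The miRNAs named at month 4 were also read in the second cohort, at sampling point 5, with 6 CM and 6 Ctrl mice that share no animal with the training cohort. The labels do not say which month point 5 is, and only normalized values were deposited for it, so these levels cannot be set beside those above. With limma-trend on log2(value + 1), 0 of 930 miRNAs were called (0%), with 54 (5.81%) at an unadjusted p under 0.05, and edgeR on the whole reads recovered from the table also made 0 calls among 478, with 70 at an unadjusted p under 0.05. miR-126a-3p was at 40098 in CM mouse 2684, at 1347 to 2322 in the other 5 CM mice and at 936 to 2581 in Ctrl mice. The other CM mice thus overlapped the Ctrl mice, and the difference of 1.04 ± 0.60 (SE) was not called (limma adjusted p = 0.870). The same mouse was far above all others in miR-31-5p (108507, compared with 1357 to 6939 in the other 11 mice), in miR-298-5p (12117, compared with 45.2 to 117.6 in the other 11 mice), in miR-212-5p (688, compared with 12.9 to 49.5) and in miR-296-3p (4552, compared with 35.5 to 135.8). These were picked after their values were seen, and mouse 2684 also had a library at a later sampling point. The difference between the arms in miR-541-5p was 0.95, with 0.53 to 0.99 over the alternatives that gave a value, and was not called. For miR-499-5p the difference was 1.00 ± 0.48 (SE; limma adjusted p = 0.855) and for miR-135a-1-3p it was −1.87 ± 0.77 (SE; limma adjusted p = 0.816), neither of them called. miR-2137, at 264 to 1337 in CM and 321 to 1023 in Ctrl mice, differed by −0.30 ± 0.38 (SE; limma adjusted p = 0.955), the opposite sign to month 4.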

How the data were processed

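Per the labels, small RNA libraries were made from total RNA of PBMC by adapter ligation. According to the methods, the authors trimmed reads with cutadapt, aligned them with Bowtie to the mm9 genome and counted mature miRNAs, whereas the submitters' processing notes name GRCm38, so the build is not settled. The deposited counts were raw mirTOP counts of mature miRNAs. The deposited CPM tables of both cohorts were treated as a scaled signal made by the authors, since the month 4 columns summed to 954829 to 1326520 and not to a fixed total. All of their values were whole reads within a tolerance of 0.01, and the recovered reads were tested as an alternative. Precision is limited by counting below about 1 CPM and otherwise by the spread between mice.

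Counts were tested with edgeR 4.0.16 (R 4.3.3) by quasi-likelihood F tests with TMM scaling and filterByExpr on the groups compared, and point 5 with limma 3.58.1 for miRNAs at 1 or more in at least 6 libraries. Samples were grouped by the arm, month and mouse in their labels. The CM arm was divided by the last month with a library. Alternatives were DESeq2 1.42.0, limma-voom, raw or upper quartile library sizes, other filters, robust fitting, sex or the G number as a covariate, all training libraries in 1 fit, the deposited CPM with a pseudocount of 1 or 0.5, omission of miR-5099 and omission of mice. Chosen after the data were seen were the omission of mice 3338 and 3357 together, the recovered reads, and for the divided CM arm a minimum of 10 counts in 6 libraries and the G number. Scripts were tested on simulated data. For month 4 against month 0 the mouse was the pairing, since the same animals were sampled, and the correlation of their deviations at the 2 months was between −0.174 and 0.180.

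The comparison, lists and alternatives were chosen with earlier results of these data known. Named were the miR-126 strands, every miRNA called at month 4, the 8 per direction with the smallest p and up to 5 without overlap between the arms at a mean of 10 CPM or more, the 8 most abundant, up to 6 per direction for the divided CM arm, up to 4 called per direction for month 4 against month 0, and up to 4 members of each list. miRNAs named outside this rule, such as other called members of a list, were chosen after their values were seen. CPM of list members were scaled in the fit with the divided CM arm, so that they differ slightly from those of the month 4 fit.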

Additional observations from a re-analysis of the deposited data

Results flagged for a closer look

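In 4 miRNAs a single Ctrl library stood apart from the other 6 of its arm by Dixon's criterion, which chance meets in about 1 in 20 groups. These were miR-147-3p in Ctrl mouse 3342 at 97.5 CPM, miR-21a-5p in Ctrl mouse 3349 at 77449 CPM, miR-132-5p in Ctrl mouse 3340 at 2.45 CPM and miR-145a-5p in Ctrl mouse 3342 at 7.02 CPM. The number of groups screened is not given here, so these 4 are not read as more than that rate would give.

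The change from month 0 to month 4 differed between the arms by 3.22 on the log2 scale for miR-126a-3p and by 2.87 for miR-126a-5p, by the test of the difference itself in edgeR (adjusted p = 0.0142 for both) without the pairing of the mice. With each mouse as a block neither was called (2.20 and 2.19, edgeR adjusted p = 0.726 for both).

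Within the CM arm, the difference from Ctrl was not the same in mice 3338 and 3357 as in the CM mice with later libraries, by the edgeR test between those groups. It was larger by 5.13 for miR-541-5p, 4.87 for miR-298-5p, 4.55 for miR-212-5p, 4.40 for miR-296-3p, 3.68 for miR-31-5p and 3.45 for miR-132-5p on the log2 scale. In the lower direction the values were −3.18 for miR-466f-3p, −3.07 for miR-143-3p, −2.96 for miR-879-5p, −2.94 for miR-145a-5p, −2.81 for miR-3102-3p and −2.71 for miR-466h-3p. Sex and the G number went with this division, and their part in it was not tested beyond the fits with each as a covariate.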

How the results depend on the processing

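The 4 calls at month 4 became 23 with DESeq2, 0 with limma-voom, 13 without a filter, 2 with at least 10 counts in 6 libraries, 0 with sex as a covariate, 7 without mice 3334 and 3335, 0 without mice 3338 and 3357 (edgeR, 43 at an unadjusted p under 0.05), 70 and 51 in the fit of all training libraries without and with the G number, 31 in that fit by limma-voom with the mouse as a random block, 10 with the recovered reads and 33 with an unadjusted p of at most 0.01 and a fold of at least 1.5. Leaving out 1 mouse gave 0 to 14 calls. The log2 fold changes of the 3 miRNAs called higher had the same sign in all 31 alternatives, with 0.94 to 2.68 for miR-126a-3p (past the threshold in 15), 1.32 to 3.36 for miR-126a-5p (21) and 1.48 to 2.30 for miR-499-5p (21). For miR-135a-1-3p the 21 alternatives that gave a value ranged from −2.86 to −1.18, with 13 past the threshold.

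For month 4 against month 0, the mouse as a replicate block left 0 calls by edgeR (29 at an unadjusted p under 0.05), and DESeq2 made 9. Between the CM mice with later libraries and Ctrl, DESeq2 made 7 calls and the omission of mice 3334 and 3335 gave 1. Between the CM groups there were 68 calls with sex as a covariate. Leaving out 1 mouse gave 11 to 161 calls there, and 24 to 173 between mice 3338 and 3357 and Ctrl. miR-135a-1-3p, not called between the CM groups, turned its sign with sex as a covariate (0.98) and lay between −1.25 and 0.39 when 1 mouse was left out. At point 5 without CM mouse 2684, uncalled differences turned their sign for miR-31-5p (−0.19), miR-298-5p (−0.085) and miR-147-3p (0.078). The cause of these changes was not tested.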

Other observations

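In CM mouse 2684 of the second cohort at point 5, miR-126b-3p was listed at 29291 and miR-126a-5p at 29177, and in the other 11 mice the listed values of the 2 miRNAs were likewise close to each other, at 319 to 980.5 and 319 to 968. In the training counts miR-126b-3p had 0 to 11 counts per month 4 library while miR-126a-5p was at 33.4 to 1182 CPM. Values of miR-126b in the second cohort are therefore uncertain.

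miR-5099 took 0.130% to 8.42% of the counts of the month 4 libraries, with the highest share in Ctrl mouse 3335. With it left out, 5 miRNAs were called at month 4.

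miR-133b-3p, a muscle miRNA, was at 0 and 0.233 CPM in mice 3338 and 3357 and at 2.20 to 5.41 CPM in the other CM mice. miR-133b-3p did not pass the filter between the arms. It entered only the fit with the divided CM arm, whose filter needed fewer libraries, so it is given as levels alone. It was chosen after its values were seen, and its direction was the opposite of that of miR-499-5p.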
